A study of Rattus norvegicus with 6 samples.

Results

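Focal adhesions are the contacts through which a cell grips its matrix, and the genes described here encode the proteins that join integrins, the matrix receptors, to actin filaments. The set holds 37 genes chosen by symbol from what is known of their products, and with earlier results of these data already known. All 37 were found among the 17954 genes of the series. Their expression was measured by mRNA sequencing of rat mandibular condylar chondrocytes (cartilage cells from the jaw joint), with 3 libraries of flat culture (2D culture) and 3 of condylar cartilage organoids, small cartilage tissues grown in culture. Flat cultures received DMEM plus 20% fetal bovine serum, whereas organoids received chondrogenic medium, and the effect of the format cannot be told apart from that of the medium. No genotype, strain, animal age or treatment beyond these culture conditions is given in the labels. The labels do not tie a group's 3 libraries to different animals or dishes, and a p-value here therefore reflects sample-to-sample spread that may be technical.

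In a focal adhesion, talin and kindlin bind the integrin tail and switch the receptor on, vinculin strengthens the link from talin to actin, and filamin and alpha-actinin cross-link the filaments. The kinase FAK (Ptk2), Src and scaffolds such as paxillin turn that contact into signals, while LIM-domain proteins such as zyxin are recruited where filaments are under tension. Many genes of this machinery are known targets of SRF, a transcription factor that binds a DNA element called the CArG box and is switched on by its MRTF partners when free actin monomers become scarce. Chondrocytes that spread on plastic are known to build stress fibres and to lose their rounded form.

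Library totals ran from 18592574 to 26472447 estimated counts, and Col1a1 alone took 20 to 26.4% of the counts in organoids against 3.31 to 4.35% in 2D culture. Levels are therefore given as CPM (counts scaled to a common library size) after TMM scaling, which allows for such dominant genes, and a fold change is always organoid over 2D culture. A gene is called when its adjusted p is under 0.05 in edgeR's quasi-likelihood test, with p-values adjusted over all 13052 genes tested. The label chondrocyte was checked against 10 markers, whose summed level was 1501 to 1604 CPM in 2D culture and 11796 to 102369 CPM in organoids. In 2D culture most of that sum was Acan (1413 to 1512 CPM), while Col2a1 stood at 2.91 to 4.89 CPM and Col9a1 at 0.398 CPM or less. Sox9 was at 51.4 to 55.4 CPM and Hapln1 at 20.7 to 21.7 CPM in 2D culture. Of the 10 markers, 8 were called higher in organoids, against 14.9% of all genes tested, and Acan and Prg4 were not called. Of 8 markers of hypertrophic chondrocytes and osteoblasts, 8 were called higher in organoids, against 14.9% of all genes tested. Markers of endothelial cells summed to at most 3.59 CPM, of adipocytes to at most 13.4 CPM and of skeletal muscle to at most 10.7 CPM in any library. The adipocyte gene Fabp4 was called higher, at 0.275 to 0.402 CPM in 2D culture and 5.06 to 10.8 CPM in organoids (edgeR adjusted p = 0.00414). Tnnt3 of skeletal muscle was also called higher, at 0.947 to 1.36 CPM and 3.66 to 5.89 CPM (edgeR adjusted p = 0.0424). Macrophage and osteoclast markers summed to 139 to 141 CPM in 2D culture and 103 to 298 CPM in organoids. Ctsk made up most of the 2D sum, the leukocyte gene Ptprc was at 0 in every 2D culture and in organoid 2, and Adgre1 was at 0 in all 6 libraries. Acp5, an osteoclast enzyme, was called higher, at 3.54 to 4.35 CPM in 2D culture and 98.9, 23.2 and 14.8 CPM in organoids (edgeR adjusted p = 0.0174). Csf1r, the receptor for a macrophage growth factor, did not pass the filter and was at 0 to 0.278 CPM in 2D culture and at 32.4, 16.7 and 0.142 CPM in organoids. The part of such cells in the members' change was not tested.

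Transcripts of the adhesion and actin linker genes were scarcer in organoids. Of the 37 members, all of which passed the low-count filter, 19 were called lower, 2 higher and 16 were not called, against 12.6% of all genes tested called lower and 14.9% called higher. The members' median log2 fold change was -0.92, beside -0.03 over all genes. Because the members were chosen with earlier results of these data known, these shares describe the set and do not test it. Among the 9939 genes with at least the mean level of the lowest member (Srf, 6.04 CPM over the 6 libraries), 13.5% were called lower and 17.1% higher. In 22 members every organoid lay below every 2D culture and in 3 every organoid lay above, against 30.2% and 23.3% of all genes tested, and in 12 the groups overlapped. The falls were of at least 4-fold in 9 genes, of 2-fold to under 4-fold in 9 and smaller in 1. In these bulk libraries, fewer cells of a type and less RNA per cell cannot be told apart.

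Each organoid showed the pattern on its own. The members' median log2 level, taken as log2(CPM + 1) and set against the mean of the 2D cultures, was -0.83, -1 and -1.24 in organoid 1, 2 and 3, where all genes tested had medians of -0.08, -0.12 and -0.17. Summed over the set, the level was 12545 to 13133 CPM in 2D culture and 4398 to 5497 CPM in organoids. Among the 19 genes called lower, organoid 2 was the lowest organoid for 11, organoid 3 for 5 and organoid 1 for 3, so no organoid carried all of the falls. The highest organoid exceeded the lowest by a median of 1.58-fold over these 19 genes, from 1.07-fold for Flna to 2.27-fold for Tpm4. Organoids varied more than 2D cultures among themselves: the SD of a member's log2(CPM + 1) had a median of 0.37 against 0.0866, beside 0.594 against 0.12 for all genes tested.

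**Figure D1:**
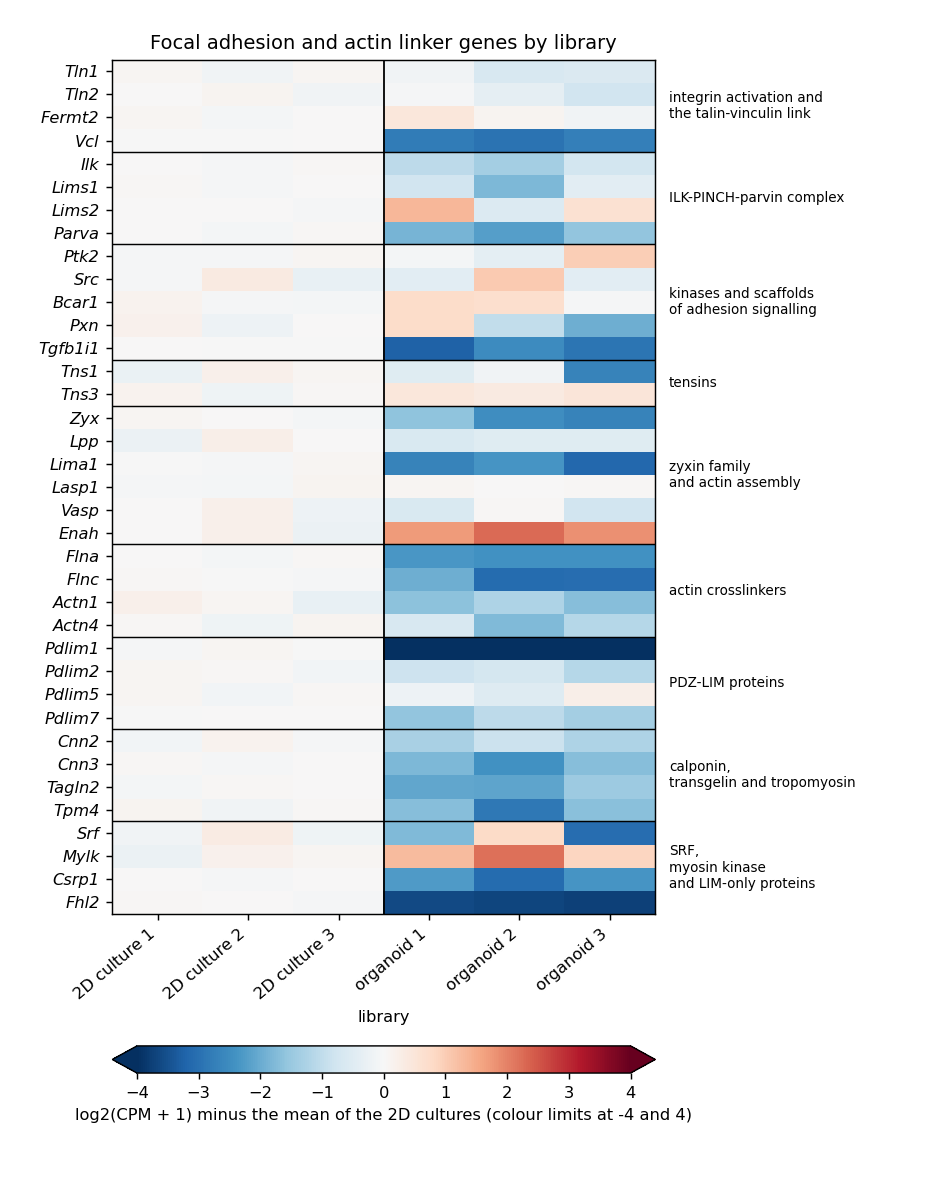
Level of each of the 37 genes (rows, grouped by role) in each of the 6 libraries (columns), as log2(CPM + 1) minus the mean of the 3 2D cultures, blue for lower and red for higher, with colours limited at -4 and 4. Pdlim1 and Fhl2 are the darkest rows in all 3 organoids, Enah and Mylk are red in all 3, and Srf, Pxn and Tns1 differ from organoid to organoid.

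Most markers of smooth muscle and myofibroblasts fell in the same libraries. The summed level of the 9 markers was 4042 to 4290 CPM in 2D culture and 415 to 578 CPM in organoids. Of the 9, 7 were called lower, against 12.6% of all genes tested. Acta2 went from 122 to 136 CPM down to 0.180 to 2.18 CPM, and Cnn1 was at 0 in organoids 2 and 3, Actg2 in organoid 3, Lmod1 in organoid 2 and Myocd, an SRF partner of muscle cells, in organoid 3. Smtn and Des were not called, with fitted log2 fold changes of 0.36 and 3.38, both upward. Smtn, which made up most of the organoid sum, was at 306 to 346 CPM in 2D culture and at 370 to 513 CPM in organoids. For Des the groups overlapped. The part of these genes or of such cells in the members' change was not tested.

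At the integrin tail, vinculin was far lower in organoids and the integrin activators were not called. Vinculin (Vcl, gene ID 305679), which binds stretched talin and anchors it to actin, stood at 1010.0, 1019.8 and 1041 CPM in 2D culture 1, 2 and 3 and at 145, 132 and 153 CPM in organoid 1, 2 and 3. The 3 organoids lay close together and about 7-fold below, with a log2 fold change of -2.83 ± 0.21 (SE, n = 3 per group, edgeR adjusted p = 0.000463). Talin 1 (Tln1, gene ID 313494), the main talin of non-muscle cells, was at 369, 323 and 368 CPM in 2D culture and 320.1, 224 and 235 CPM in organoids. Its groups were separated by a narrow gap and it was not called (-0.44 ± 0.22, adjusted p = 0.182). Without organoid 1 it was called (-0.60, adjusted p = 0.0442). Tln2, the second talin, ranged from 29.6 to 35.8 CPM and from 18.7 to 31.7 CPM (-0.39 ± 0.27, adjusted p = 0.323). Kindlin-2 (Fermt2), which activates integrins together with talin, ranged from 394 to 435 CPM and from 380 to 569.5 CPM (0.16 ± 0.23, adjusted p = 0.638), and it turned to -0.48 when libraries were scaled by their totals. That scaling called both talins lower (Tln1 -1.09, adjusted p = 0.00587, and Tln2 -1.04, adjusted p = 0.0214).

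The ILK-PINCH-parvin complex, a scaffold under beta integrins, lost transcripts of ILK and alpha-parvin. Parva (gene ID 57341), the parvin that binds actin, was at 318, 296 and 322 CPM in 2D culture and 86.0, 66.3 and 105 CPM in organoids, a log2 fold change of -1.86 ± 0.23 (adjusted p = 0.0026). Ilk (gene ID 170922), the pseudokinase at the centre of the complex, was at 468, 446 and 473 CPM against 224, 181 and 276 CPM (-1.03 ± 0.23, adjusted p = 0.018). Both genes were lower in every organoid, but Ilk lost its call when any 2D culture was left out (adjusted p = 0.0793 to 0.0915). Of the PINCH adaptors, Lims1 was at 270.3, 259 and 264 CPM and at 155, 75.2 and 198 CPM, without overlap and without a call (-0.89 ± 0.35, adjusted p = 0.107). It was called without organoid 2 (-0.54, adjusted p = 0.0323) and without organoid 3 (-1.21, adjusted p = 0.0498), and also with total library size (-1.52, adjusted p = 0.0157). Lims2, its paralog, was at 48.0 to 50.2 CPM in 2D culture and at 125, 33.5 and 76.5 CPM in organoids, above the 2D cultures in organoids 1 and 3 and below them in organoid 2. It was not called (0.67 ± 0.44, adjusted p = 0.304), was called without organoid 2 (1.08, adjusted p = 0.0172). Its count is not whole in 2 libraries, which means that some of its reads were split with another gene.

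Among kinases and scaffolds of adhesion signalling, the paxillin relative Hic-5 was lower and the others were not called. Hic-5 (Tgfb1i1, gene ID 84574), a LIM scaffold known from myofibroblasts, was at 286, 283 and 283 CPM in 2D culture and 29.1, 48.8 and 36.3 CPM in organoids (-2.90 ± 0.25, adjusted p = 0.000844). All 3 organoids were far below the 2D cultures, which agreed within an SD of 1.59 CPM. Paxillin (Pxn) was at 30.3, 23.4 and 27.4 CPM and at 45.9, 13 and 6.15 CPM, so that organoid 1 lay above all 2D cultures and organoids 2 and 3 below them. It was not called (-0.32 ± 0.68, adjusted p = 0.76), and without organoid 1 it was called lower (-1.49, adjusted p = 0.0392). FAK (Ptk2) was at 51.6 to 55.8 CPM in 2D culture and at 49.8, 40.5 and 105 CPM in organoids (0.30 ± 0.37, adjusted p = 0.593), with organoid 3 alone above the 2D cultures. Src was at 15.9 to 25.7 CPM and at 14.5, 41.9 and 14.6 CPM (0.22 ± 0.49, adjusted p = 0.769), with organoid 2 alone above. The Src substrate p130Cas (Bcar1) ranged from 48.5 to 56.9 CPM and from 50.3 to 86.3 CPM (0.49 ± 0.26, adjusted p = 0.201) and was called higher without organoid 3 (0.69, adjusted p = 0.0317).

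The tensins, which link integrins to actin in the long-lived fibrillar adhesions, were not called. Tns1 was at 50.8, 70.3 and 64.5 CPM and at 43.7, 55.4 and 8.70 CPM (-0.79 ± 0.61, adjusted p = 0.374), with organoid 3 far below the other organoids. Tns3 was at 109, 87.0 and 102 CPM and at 135, 127 and 137 CPM, so that every organoid was above every 2D culture by a small margin (0.42 ± 0.18, adjusted p = 0.131). Without organoid 2 it was called higher (0.50, adjusted p = 0.0348), and with total library size its change was -0.19.

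In the zyxin family and the actin assembly proteins at adhesions, 2 genes fell and 1 rose. Zyxin (Zyx, gene ID 114636), which repairs strained stress fibres, was at 249, 238 and 227 CPM in 2D culture and 76.5, 41.9 and 36.6 CPM in organoids (-2.20 ± 0.32, adjusted p = 0.00471). Lima1 (gene ID 300228), also known as EPLIN, which bundles and stabilises actin filaments, was at 185, 181 and 197 CPM against 28.8, 36.0 and 20.6 CPM (-2.72 ± 0.26, adjusted p = 0.00105). Both were lower in every organoid by a wide margin. Lpp, a zyxin relative, was at 183, 254 and 219 CPM and at 140.2, 154 and 154 CPM, without overlap, and was not called (-0.55 ± 0.20, adjusted p = 0.0873), although DESeq2 called it (-0.52, adjusted p = 0.0391). Lasp1, a LIM and SH3 protein of adhesions, was at 323 to 361 CPM and at 342 to 355 CPM (0.05 ± 0.18, adjusted p = 0.87), and it turned to -0.57 with total library size.

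Of the Ena/VASP proteins, which speed filament growth, Mena (Enah, gene ID 360891) was higher in organoids. It was at 40.1, 46.3 and 33.9 CPM in 2D culture and at 132, 194 and 142 CPM in organoids. No organoid came near a 2D value, and the log2 fold change was 1.96 ± 0.24 (adjusted p = 0.00255). Vasp was at 17.9, 20.5 and 15.5 CPM and at 11.4, 18.4 and 10.2 CPM (-0.43 ± 0.34, adjusted p = 0.381), with organoid 2 among the 2D values and a fractional count in 4 libraries.

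All 4 actin crosslinkers in the set fell. Filamin A (Flna, gene ID 293860), which cross-links actin into gels and binds integrin tails, was at 2187, 2068 and 2240.1 CPM in 2D culture and at 428, 401 and 407 CPM in organoids (-2.39 ± 0.22, adjusted p = 0.000887). The 3 organoids were within 1.07-fold of each other. Filamin C (Flnc, gene ID 362332), the filamin of striated muscle, was at 141, 136 and 133 CPM against 34.7, 15.4 and 15.7 CPM (-2.64 ± 0.37, adjusted p = 0.00412), with organoid 1 above the other organoids. Among the alpha-actinins, which bundle stress fibres, Actn1 (gene ID 81634) was at 107, 99.1 and 76.1 CPM and at 29.3, 38.6 and 28.0 CPM (-1.56 ± 0.24, adjusted p = 0.00548). Actn4 (gene ID 63836) was at 1238, 1063 and 1276 CPM and at 761, 350.0 and 538 CPM (-1.12 ± 0.32, adjusted p = 0.0429), and it shares reads with other genes in all 6 libraries. Actn4 lost its call when any 2D culture or organoid 3 was left out (adjusted p = 0.0863 to 0.149).

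The largest fall of the set was in a PDZ-LIM gene. PDZ-LIM proteins sit on alpha-actinin along stress fibres. Pdlim1 (gene ID 54133), also called CLP36, was at 303, 327 and 307 CPM in 2D culture and at 5.77, 4.14 and 6.48 CPM in organoids. It was 57.0-fold lower, with a log2 fold change of -5.83 ± 0.27 (adjusted p = 0.000142). Pdlim7 (gene ID 286908), also called Enigma, was at 175, 179 and 179 CPM and at 58.3, 85.7 and 69.3 CPM (-1.32 ± 0.21, adjusted p = 0.00595). Pdlim2 (gene ID 290354) was at 27.1, 26.7 and 23.9 CPM and at 14.1, 15.5 and 11.3 CPM, lower in every organoid (-0.92 ± 0.26, adjusted p = 0.0375). Its call was lost when any 2D culture was left out (adjusted p = 0.134 to 0.163), with a spread per group in limma-voom (adjusted p = 0.121) and with the replicate number as a block (adjusted p = 0.101). Pdlim5 was at 346 to 394 CPM and at 265 to 442 CPM, with organoid 3 above the 2D cultures and the others below (-0.13 ± 0.25, adjusted p = 0.731). Outside the set, the PDZ-LIM gene Pdlim4 was called higher (1.13 ± 0.19, edgeR adjusted p = 0.0077). It was at 37.7, 43.4 and 38.1 CPM in 2D culture and at 94.6, 77.4 and 89.2 CPM in organoids. Pdlim3 (-1.61, adjusted p = 0.458) and Ldb3 (1.28, adjusted p = 0.54) were not called.

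Calponin, transgelin and tropomyosin genes of non-muscle cells, whose products coat actin filaments, fell in all 4 cases. Cnn3 (gene ID 54321), acidic calponin, was at 788, 739 and 765 CPM and at 218, 142 and 235 CPM (-1.94 ± 0.26, adjusted p = 0.00328). Cnn2 (gene ID 690976) was at 473, 560.3 and 494 CPM and at 206, 277 and 214 CPM (-1.13 ± 0.22, adjusted p = 0.0118). Every organoid was lower for both, but Cnn2 lost its call when any 2D culture was left out (adjusted p = 0.0594 to 0.0698). Tagln2 (gene ID 304983) was at 546, 606 and 594 CPM and at 138, 135 and 213 CPM (-1.85 ± 0.26, adjusted p = 0.00389). Tpm4 (gene ID 24852), a short tropomyosin of stress fibres, was at 614, 518 and 594 CPM and at 176, 79.0 and 179 CPM (-1.99 ± 0.35, adjusted p = 0.009). For both, no organoid reached a 2D value, and organoid 2 was the lowest library for Tpm4.

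The LIM-only genes Fhl2 and Csrp1 were much lower in organoids. Of their relatives outside the set, Fhl1 was called lower too (-3.91, edgeR adjusted p = 0.00263). Fhl3 (0.12, adjusted p = 0.718) and Csrp2 (0.77, adjusted p = 0.203) were not called, and Csrp3 did not pass the low-count filter. Fhl2 (gene ID 63839), a coactivator known both at focal adhesions and in the nucleus, was at 135, 133 and 128 CPM in 2D culture and at 9.83, 9.43 and 9.08 CPM in organoids, an SD of 0.377 CPM. It was 14.0-fold lower (-3.80 ± 0.20, adjusted p = 0.000168). Csrp1 (gene ID 29276), which binds alpha-actinin and zyxin, was at 1313, 1248 and 1304 CPM and at 268, 153 and 251 CPM (-2.52 ± 0.28, adjusted p = 0.00189). Mylk (gene ID 288057), the kinase that activates myosin II, went the other way, at 5.76, 8.10 and 7.42 CPM in 2D culture and 18.5, 36.0 and 13.6 CPM in organoids (1.68 ± 0.44, adjusted p = 0.032). Mylk was above 2D culture in all 3 organoids, but its call was lost when any 2D culture was left out (adjusted p = 0.104 to 0.137), with total library size (1.09, adjusted p = 0.13) and with the replicate number as a block (1.57, adjusted p = 0.0533).

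Srf itself (gene ID 501099), the transcription factor, was scarce and uneven among organoids. It had 210, 303 and 200 counts in 2D culture 1, 2 and 3, or 6.43, 9.26 and 6.19 CPM, and 24, 216 and 0 counts in organoid 1, 2 and 3, or 1.41, 13 and 0 CPM. Organoid 2 was above every 2D culture and organoids 1 and 3 below, and a count of 0 allows up to 0.142 CPM in organoid 3. It was not called (-0.61 ± 1.52, adjusted p = 0.799). The estimate rested on single libraries, at -3.34 without organoid 2, -0.18 without organoid 1 and -0.03 without organoid 3, and it was -3.43 in limma-voom and -2.47 with the replicate number as a block, none of them called.

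**Figure D2:**
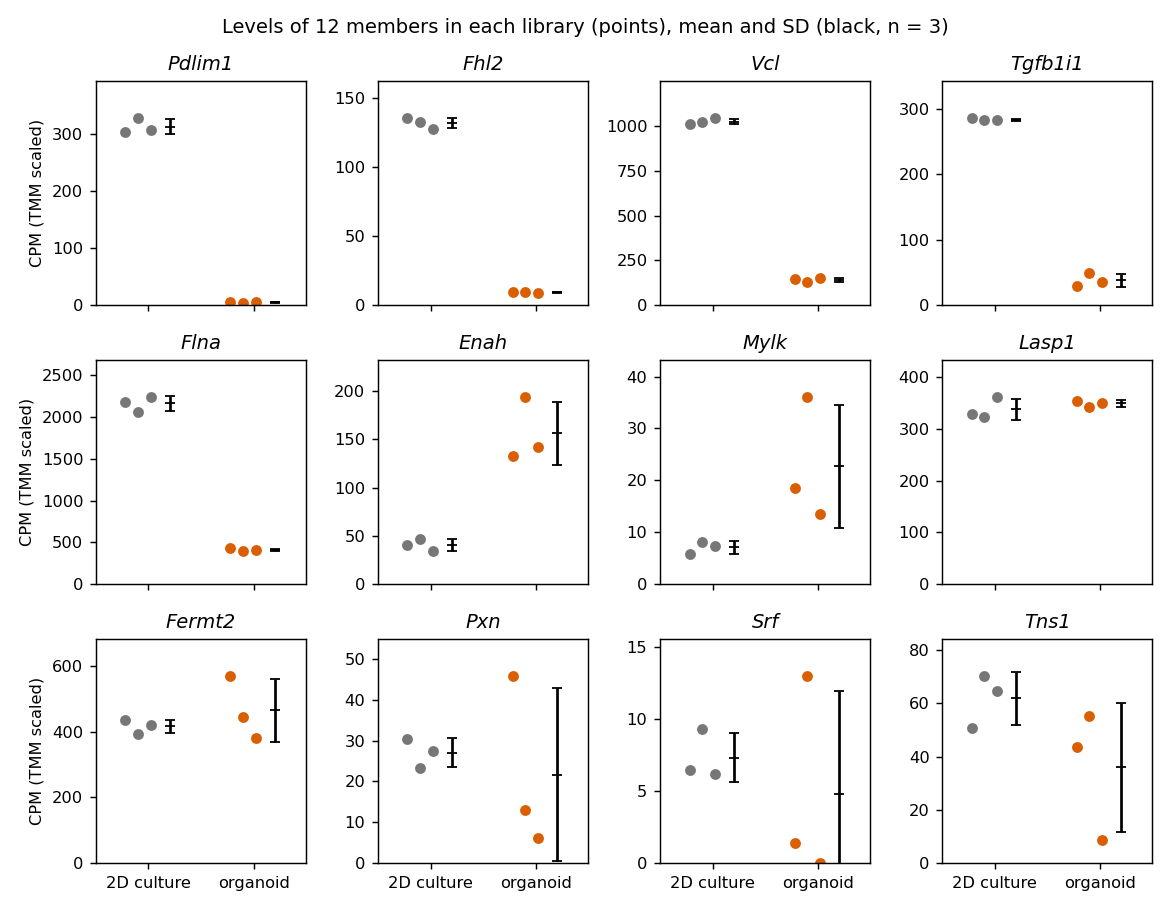
Level in CPM of 12 of the genes in each library (points, grey for 2D culture and orange for organoid), with the mean and SD of each group in black (n = 3) and each axis starting at 0, where the lower SD bar of Srf is cut. Pdlim1, Fhl2, Vcl, Tgfb1i1 and Flna are far apart between the groups, Lasp1 and Fermt2 overlap, and Pxn, Srf and Tns1 show organoids that lie on both sides of the 2D cultures or far from each other.

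**Figure D3:**
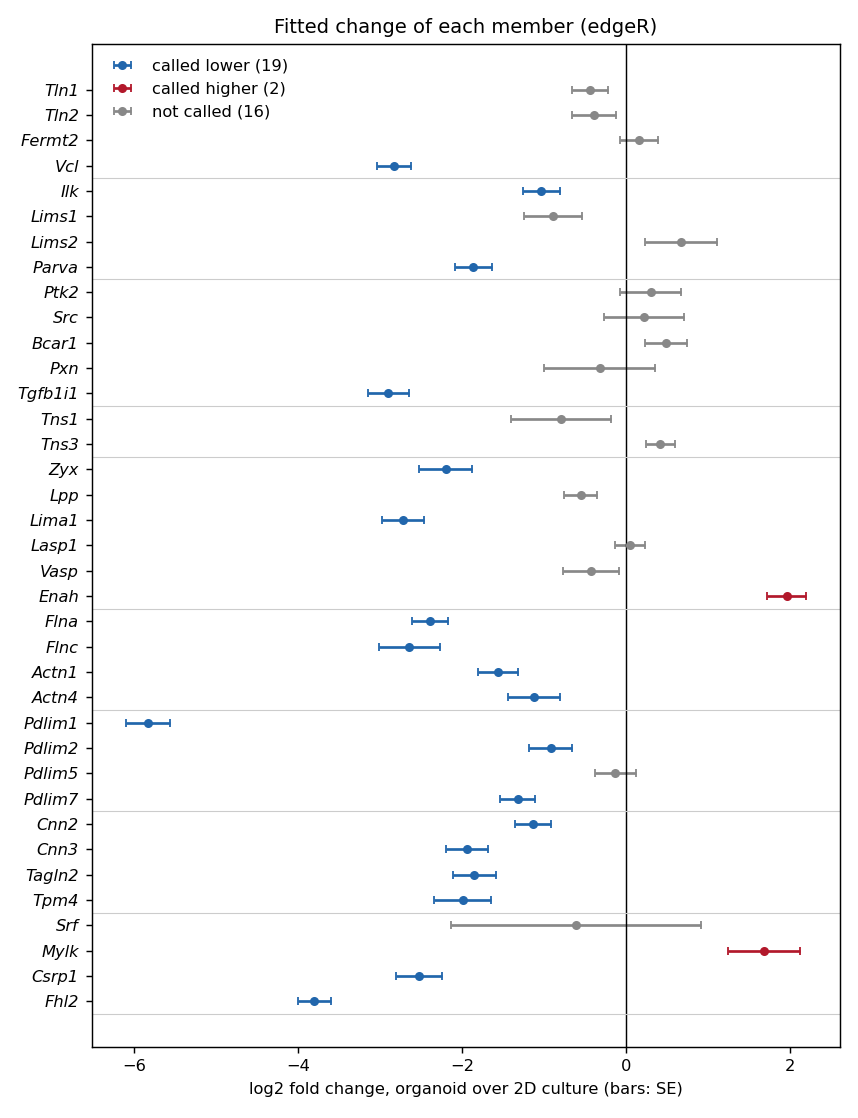
Fitted log2 fold change of each gene, organoid over 2D culture, with its SE as a bar, blue for called lower, red for called higher and grey for not called, and grey lines between the role groups. The 19 blue points run from -5.83 for Pdlim1 to -0.92 for Pdlim2, and the 2 red points are Enah and Mylk.

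Because SRF is the known regulator of many of these genes, the promoters of the members were searched for the CArG box, a palindromic element read alike on both strands, and for GGAATG, a motif of TEAD factors, on both strands. The windows, from RefSeq (build GRCr8), hold 250 bases before to 50 after each annotated start, and 29 of the 37 genes matched an entry. A CArG box was found in 4 of these 29 genes (13.8%), Srf, Fhl2, Cnn2 and Lima1, against 1.77% of the 27457 genes in the table and 1.41% of the 10615 tested genes with a window. Of the 16 members called lower with a window, 3 held it (18.8%), as did 1 of 11 members not called (9.09%), against 1.94% of all genes called lower with a window and 1.16% of those called higher. GGAATG was found in 8 of 29 genes (27.6%), Fhl2, Flna, Flnc, Lims2, Mylk, Tagln2, Vcl and Zyx, against 15% of the table and 12.2% of tested genes. It was in 6 of 16 members called lower (37.5%), 1 of 11 not called (9.09%) and 1 of 2 called higher. Among all genes with a window it was in 14.5% of those called lower and 11.1% of those called higher. In the members, no CArG box overlapped a GGAATG. A match is a description of letters and not of binding, and windows without a match may have the element elsewhere.

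The promoters with a CArG box are shown because they hold the element through which SRF is known to act. Each line gives the 250 bases before the start, 5′ to 3′ on the gene's strand, in GRCr8, with CArG boxes and GGAATG (or its complement CATTCC) in capitals. Srf has 2 boxes, CCATATAAGG and CCATAAAAGG, beginning 81 and 61 bases before the start. Fhl2 has 2 annotated starts with a different box before each, CCTTATATGG at 58 bases and CCAAAAATGG at 95 bases, the latter followed by a CATTCC at 36 bases. Cnn2 has CCTTATAAGG at 71 bases and Lima1 CCATAAAAGG at 209 bases.
Srf (chr9:21923826-21924075, plus strand): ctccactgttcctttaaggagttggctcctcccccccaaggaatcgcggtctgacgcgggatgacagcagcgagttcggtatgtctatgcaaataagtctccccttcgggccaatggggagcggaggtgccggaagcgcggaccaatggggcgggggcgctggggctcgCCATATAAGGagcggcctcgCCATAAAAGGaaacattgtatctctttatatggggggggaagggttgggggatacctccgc
Fhl2, start 1 (chr9:52923327-52923576, minus strand): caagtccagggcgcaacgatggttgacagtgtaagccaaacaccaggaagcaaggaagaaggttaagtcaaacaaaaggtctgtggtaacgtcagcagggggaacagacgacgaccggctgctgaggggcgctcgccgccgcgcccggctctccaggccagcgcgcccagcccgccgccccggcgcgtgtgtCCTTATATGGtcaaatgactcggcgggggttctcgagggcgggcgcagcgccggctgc
Fhl2, start 2 (chr9:52954541-52954790, minus strand): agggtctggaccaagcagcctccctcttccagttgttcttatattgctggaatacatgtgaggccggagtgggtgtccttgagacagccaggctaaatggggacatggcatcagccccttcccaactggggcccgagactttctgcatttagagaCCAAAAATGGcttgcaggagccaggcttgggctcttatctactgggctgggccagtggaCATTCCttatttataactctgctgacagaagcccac
Cnn2 (chr7:10370313-10370562, minus strand): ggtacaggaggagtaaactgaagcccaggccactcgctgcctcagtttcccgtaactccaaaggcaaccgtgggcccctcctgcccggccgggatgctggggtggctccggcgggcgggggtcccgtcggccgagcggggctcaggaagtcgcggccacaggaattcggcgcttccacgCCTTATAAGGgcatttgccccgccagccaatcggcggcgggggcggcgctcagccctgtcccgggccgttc
Lima1 (chr7:132880344-132880593, minus strand): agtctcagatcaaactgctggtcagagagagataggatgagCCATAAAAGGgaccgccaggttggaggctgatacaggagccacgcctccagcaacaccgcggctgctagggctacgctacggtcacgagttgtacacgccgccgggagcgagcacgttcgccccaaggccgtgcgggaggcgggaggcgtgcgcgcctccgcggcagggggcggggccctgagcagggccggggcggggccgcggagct

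The genes that carry these boxes had different outcomes. Fhl2, Lima1 and Cnn2 were called lower, with log2 fold changes of -3.80, -2.72 and -1.13, and Srf was not called. Vcl is shown beside them because its window opens with letters that match the last 9 of a CArG box. The letter before them lies outside the window and was not available, so whether a box is present is not known. The Vcl window also holds a GGAATG beginning 167 bases before the start.
Vcl (chr15:3404801-3405050, minus strand): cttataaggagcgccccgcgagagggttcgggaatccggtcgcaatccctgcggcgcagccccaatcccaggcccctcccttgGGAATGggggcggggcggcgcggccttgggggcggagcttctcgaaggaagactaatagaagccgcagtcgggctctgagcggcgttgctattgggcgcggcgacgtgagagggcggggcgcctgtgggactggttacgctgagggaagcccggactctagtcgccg

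Pdlim1, with the largest fall, Flna, Csrp1 and Tgfb1i1 had no CArG box in their windows. Enah, which rose, had neither motif in the windows of its 2 starts, and Mylk, which also rose, had 1 CATTCC at 36 bases.

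Shares within pairs of related genes do not depend on how libraries are scaled, and they were compared between groups for 9 pairs. With 3 libraries against 3, the smallest p an exact permutation test can give is 0.1, so none of the pairs could pass 0.05, and after adjustment over the 9 pairs that value becomes 0.15. In 6 pairs the groups did not overlap (two-sided exact permutation p = 0.1). How often the shares of other gene pairs stay apart was not computed. Among single genes tested, every organoid was lower in 30.2% and higher in 23.3%, so the 6 pairs are a description only. Vasp made up 30.8, 30.7 and 31.3% of the counts of Vasp and Enah in 2D culture and 7.9, 8.66 and 6.67% in organoids, a difference of -23.2 percentage points with an SD of 0.34 and 1.01. The share of Lims1 in the PINCH pair fell from 84.3 ± 0.475% to 65.5 ± 8.96% (SD, n = 3, exact permutation p = 0.1), with 55.3, 69.2 and 72.1% in organoid 1, 2 and 3. Pdlim5 went from 67.9 ± 1.77% to 82.3 ± 5.85% of its pair with Pdlim7.

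Other pairs were less even among the organoids. Cnn2 went from 40 ± 2.87% to 54.1 ± 10.4% of its pair with Cnn3, a difference of 14.1 points that was 8.16 without organoid 2. Tns1 went from 38.5 ± 6.45% to 20.3 ± 12.7% of its pair with Tns3, a difference of -18.2 points that was -11.0 without organoid 3. Paxillin was 9.6, 7.62 and 8.85% of the counts of Pxn and Tgfb1i1 in 2D culture and 61.2, 21.0 and 14.5% in organoids, and the difference of 23.5 points was 9.05 without organoid 1. In 3 pairs the groups overlapped. Tln1 made up 91.4 ± 1.29% and 91.2 ± 1.38% of talin counts (exact permutation p = 0.8), Flna 94.1 ± 0.312% and 95 ± 2.20% of the filamin pair (exact permutation p = 0.4) and Actn1 7.37 ± 1.54% and 6.20 ± 3.30% of the alpha-actinin pair (exact permutation p = 0.7).

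**Figure D4:**
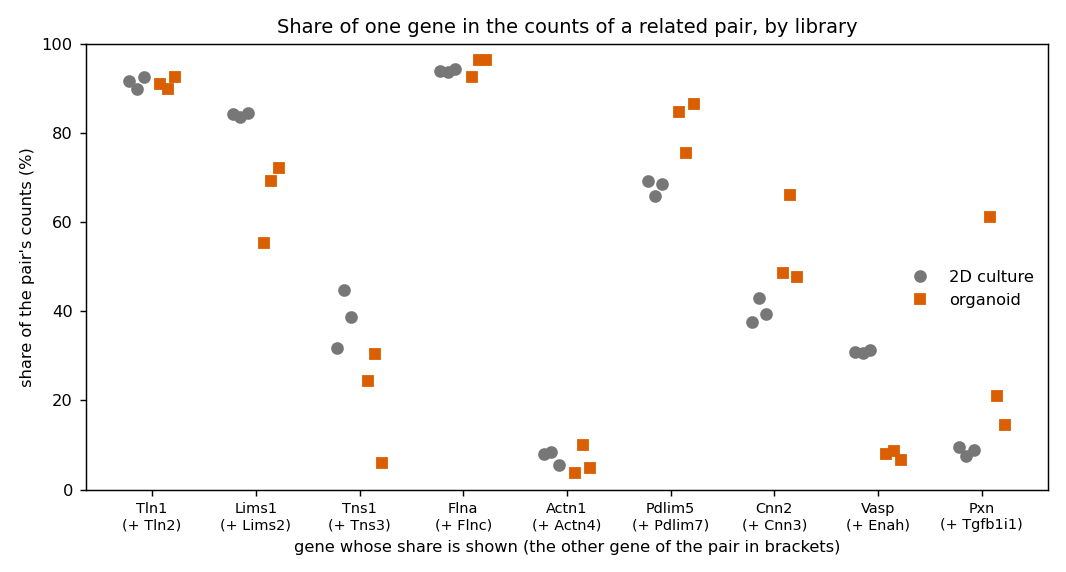
Share of the named gene in the counts of its pair, in percent, for each 2D culture (grey circles) and each organoid (orange squares), with the other gene of the pair in brackets. The groups overlap for Tln1, Flna and Actn1 and are apart for the other 6 pairs, and the shares of Vasp lie within 30.7 to 31.3% and 6.67 to 8.66%.

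Of 111 tested genes in 5 lists of other adhesion and actin genes, 29 were called lower and 15 higher, where all genes had 12.6% lower and 14.9% higher, with a median log2 fold change of -0.18. Among 32 other focal adhesion proteins 6 fell and 6 rose (18.8% each way, median 0.13), which is not far from these shares of all genes. Caveolin 1 (Cav1, log2 fold change -4.57) and the zyxin relative Trip6 (-2.31) fell, while Ptk2b, the FAK relative Pyk2, rose by 2.46 ± 0.48 (adjusted p = 0.0126). Among 30 other actin-binding and LIM proteins 10 fell (33.3%) and 4 rose (13.3%), with a median of -0.40. Cnn1, Tagln and Fhl1, muscle-type relatives of members, fell, with log2 fold changes of -10.90, -6.31 and -3.91, and Ablim3 rose by 2.76 ± 0.81 (adjusted p = 0.0447). Cnn1 and Tagln are also among the smooth muscle markers above. Other muscle-type relatives, Pdlim3 (-1.61), Actn3 (-0.31) and Ldb3 (1.28), were not called, and Actn2 and Csrp3 did not pass the low-count filter. Cnn1 had nearly no counts in organoids, so its fitted change depends on the prior count and is no bound.

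Among 17 integrin subunits 4 fell (23.5%) and 3 rose (17.6%), the latter near the share of all genes, with a median of -0.18. The common beta subunit Itgb1 was at 1513, 1240.2 and 1180.2 CPM and at 533, 229 and 513 CPM (-1.63 ± 0.37, adjusted p = 0.0195). Itga10, a collagen receptor of cartilage, rose from 5.73 ± 0.585 to 242 ± 61.0 CPM (5.40 ± 0.30, adjusted p = 0.000207), and Itga3 (-4.53) and Itga8 (-5.41) fell. Itga3 was at 0 in organoid 3 and Itga8 in organoids 2 and 3, so these fitted changes are no bounds. Itgb1, Itga3 and Itga8 lost their calls when any 2D culture was left out (adjusted p = 0.0719 to 0.123), as did Ptk2b (0.0591 to 0.0736) and Ablim3 (0.128 to 0.162). Itga3 was also not called without organoid 1 (0.0969). Ablim3 was also not called with total library size, no low-count filter, limma-voom or the replicate number as a block, or without organoid 2 or organoid 3 (0.052 to 0.0936).

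Genes of cytoplasmic actin and myosin II were also named by the rule. Actb, beta-actin, fell from 18923 ± 348 to 6522 ± 629 CPM (-1.54 ± 0.24, adjusted p = 0.00593) and Myh9, a non-muscle myosin heavy chain, fell too (-1.90). The myosin light chains Myl9 (-4.74) and Myl12a (-2.38) and the formin Diaph3 (-2.44) were also lower. Myl12b rose by 1.37 ± 0.20 (adjusted p = 0.00419; 0.77 and 0.0527 with total library size), and as a near copy of Myl12a its reads may be hard to assign. Actg1, gamma-actin, was not called (-1.27 ± 0.41, adjusted p = 0.0584). It was called lower in DESeq2 (adjusted p = 0.00682), in limma-voom with a common spread (0.0304) or a spread per group (0.00392), with total library size (0.00715) and without organoid 2 (-0.89, adjusted p = 0.00561). Among 7 partners of SRF 1 fell and 1 rose (14.3% each way, median log2 fold change 0.51), near the 12.6% and 14.9% of all genes. Myocd fell (-7.02, with organoid 3 at 0) and Mrtfb rose by 1.65 ± 0.36 (adjusted p = 0.0172). Mrtfa, at 54.9 to 62.1 CPM and 12.8 to 40.2 CPM, was not called (-1.19 ± 0.41, adjusted p = 0.0719). Elk1 (0.51), Elk3 (0.17), Elk4 (1.07) and Scai (1.41) were not called either. Mrtfa was called lower in DESeq2 (adjusted p = 0.0286), in limma-voom with a common spread (0.0271) or a spread per group (0.0279), with total library size (0.00729) and without organoid 1 (0.0226). Mrtfb lost its call without each 2D culture in turn (0.085 to 0.1), with the replicate number as a block (0.0602) and with total library size (1.06, adjusted p = 0.101).

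**Figure D5:**
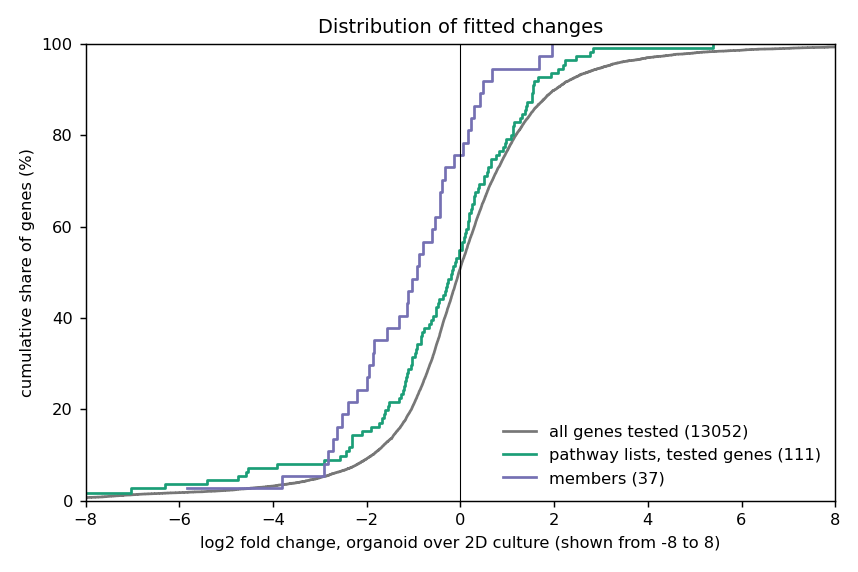
Cumulative share of genes (vertical axis, percent) by log2 fold change, organoid over 2D culture (horizontal axis, limited to 8 on either side of 0), for all 13052 genes tested, the 111 tested genes of the pathway lists and the 37 members. At the height of the median the members' line lies farthest to the left, with a median of -0.92 against -0.18 for the pathway lists and -0.03 for all genes.

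The direction of the 21 calls held in all 15 alternative analyses, and 16 of them, 15 lower and Enah, were called in each. Ilk, Actn4, Pdlim2, Cnn2 and Mylk were the 5 that did not. Without 2D culture 1, 2 or 3 the members called lower were 15 each time, when 2.98, 3.27 and 3.03% of all genes tested were called lower, and 1 was called higher, when 5.34, 5.79 and 5.25% were. Without organoid 1, 2 or 3 there were 21, 20 and 19 members lower against 17.1, 19.2 and 17.3% of all genes, and 2, 4 and 3 higher against 17.1, 20.5 and 18.2%. Scaling by total library size lowered the median of all genes to -0.65 and gave 23 members lower and 1 higher, against 27% and 8.14% of all genes tested.

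The other analyses gave 18 to 20 members lower and 1 or 2 higher. All genes were called lower and higher in 12.3% and 15.3% with RLE scaling, 12.5% and 14.9% with upper quartile scaling, 9.23% and 10% with no filter, and 12.4% and 16% with a CPM filter. These shares were 19.4% and 15.2% in limma-voom, 14% and 15% with a spread per group, 17.3% and 20.4% in DESeq2, and 9.88% and 11% with the replicate number as a block.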

How the data were processed

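For every library the authors deposited expected counts, which are read estimates and may be fractional, unnormalised, for 17954 genes with ID and symbol. Tools listed in the submitters' processing notes, with no role attached, are Bowtie2, DESeq2, HISAT, HISAT2 and RSEM. The sources used here do not state build, annotation or strand. Groups and replicate numbers come from the sample titles. Counts were rounded and analysed in R 4.3.3 with edgeR 4.0.16 (filterByExpr with a minimum count of 10, TMM scaling, robust quasi-likelihood F-test, Benjamini-Hochberg adjustment), beside DESeq2 1.42.0 and limma 3.58.1. Each SE was taken as |log2 fold change| divided by the root of its F value. Pair shares used scipy 1.17.1. TMM factors were 1.23 to 1.27 in 2D culture and 0.662 to 0.896 in organoids. A count of 0 allows 3 counts, or 0.0914 to 0.18 CPM, for counting error only. Of the members, Actn4, Vasp and Lims2 have fractional counts. Replicates of a group always differed beyond counting noise, with a lowest chi-square of 9.1 per degree of freedom.

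The members, role groups and lists were chosen with earlier results of these data known. Every member is given. From each list the text names the called genes with the biggest changes (up to 3, at 10 CPM or more), the biggest in the other direction, and Actb, Actg1, Itgb1, Mrtfa, Mrtfb and Myh9. The counts of 1 list and 1 further gene are not reported here. On simulated data (5 draws, 12709 to 12746 genes, 200 changed), the share of true changes that edgeR called was 2.48% at 2-fold, 41.4% at 4-fold, 79.6% at 16-fold and 94.2% at 64-fold. False calls made up 3.7%. The simulation gave both groups the same spread, whereas in the data the median SD over all genes was 0.594 in organoids and 0.12 in 2D culture. It also changed far fewer genes than were called here, so these shares may not carry over to the data.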

Additional observations from a re-analysis of the deposited data

How the results depend on the processing

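Over 15 alternatives, RLE and upper quartile scaling, both other filters and limma-voom with a common spread changed no member's call or direction. DESeq2 added Lpp, and a spread per group in limma-voom added Lims1 and lost Pdlim2. Total library size turned Fermt2 (-0.48), Lims2 (-0.03), Ptk2 (-0.29), Src (-0.34), Bcar1 (-0.15), Tns3 (-0.19) and Lasp1 (-0.57), none of them called, added Tln1, Tln2, Lims1 and Lpp as lower and lost Mylk. Leaving out 1 library gave 15 to 21 members lower and 1 to 4 higher, and turned Ptk2 (-0.24 to 0.59), Src (-0.43 to 0.48), Pxn (-1.49 to 0.11), Pdlim5 (-0.36 to 0.07), the Tln1 share (-0.994 to 0.377 points) and the Actn1 share (-3.04 to 0.0729 points). The 4 members higher came without organoid 2 (main 2). The pathway lists then had 14 to 37 lower and 4 to 19 higher, and all genes 399 to 2574 lower and 703 to 2747 higher, against 1650 and 1944. Each lowest count came from leaving out a 2D culture. The highest came without organoid 1 for members lower, without organoid 1 or 2 for pathway genes higher and without organoid 2 for the rest. With total library size the members had 1 higher, the pathway lists 46 lower and 6 higher, and all genes 3529 lower and 1063 higher. DESeq2 gave 23 pathway genes higher, and limma-voom 2533 of all genes lower. The cause of these shifts was not tested.

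With the replicate number as a block, 18 members were lower and 1 higher, since Pdlim2 and Mylk lost their calls, and no other member's call changed. The numbers share no stated source, and same-numbered libraries deviated together weakly (correlations 0.129, 0.267 and 0.0293), and not every library correlated best with its own number: organoid 3 did so with 2D culture 1 (0.0748).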

Other observations

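Some related genes next to the members moved apart, and those named here were chosen after their values were seen. Others moved together: Tpm1 (-1.23), Tpm2 (-2.92) and Tpm3 (-1.68) were called lower, like the member Tpm4. Of the ERM proteins, which tie actin to the plasma membrane, Ezr rose from 32.9 ± 0.120 to 94.1 ± 4.27 CPM (SD, n = 3, log2 fold change 1.52 ± 0.18 SE), Msn fell from 627 ± 75.6 to 219 ± 69.7 CPM (-1.52 ± 0.30), and Rdx was not called (-0.21 ± 0.22). Of the KANK proteins, which bind talin at the rim of adhesions, Kank1 rose from 49.5 ± 5.63 to 148 ± 32.7 CPM (1.58 ± 0.24, with fractional counts in every library) and Kank2 fell from 209 ± 21.4 to 91.1 ± 28.0 CPM (-1.20 ± 0.26), and Kank4 was called lower, at 4.50, 6.32 and 4.02 CPM in 2D culture and at 0 in all 3 organoids. Tns2, a tensin outside the set, was at 27.4, 34.4 and 31.9 CPM in 2D culture and 167, 71.0 and 122 CPM in organoids (1.94 ± 0.34). Evl, the remaining Ena/VASP gene, was at 1.5, 3.97 and 3.06 CPM and at 9.13, 47.2 and 4.78 CPM, higher in every organoid but not called (2.84 ± 0.93), with organoid 2 far above the others.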
